A study of Mus musculus with 12 samples.

Results

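The binding sites described here are β-catenin ChIP-seq summits of the mouse forelimb bud that lay far from any transcription start site (TSS). They were at least 100 kb from every annotated TSS, inside or outside genes, and outside all peaks of the histone mark H3K27ac. A summit is the position of highest coverage in a peak. The members were chosen by their position in the consensus β-catenin list of wild-type control limb buds, and they were selected on measured values, since both the presence of a β-catenin peak and the absence of an H3K27ac peak in the wild-type control and C59 consensus lists were required. Of 16189 consensus summits on chromosomes 1 to 19 and X, 1177 lay at least 100 kb from a TSS, 113 of these lay inside an H3K27ac peak, and the remaining 1064 (6.57%) are the members.

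All samples came from forelimb buds of WT Swiss Albino embryos, with no allele manipulated, that received either C59 or the solvent DMSO at E10.5 and were dissected 6 hours afterwards. C59 is a small-molecule Porcupine inhibitor, and without Porcupine, which attaches a lipid to WNT proteins, cells do not release them. The DMSO embryos are the wild-type controls. Each antibody and treatment was represented by 2 biological replicates, and the study pooled the buds of several embryos for each, so a summit is an average over embryos and over all cell types of the bud. The tissue was checked by H3K27ac peaks at promoters in the control: 5 of 5 genes of limb bud mesenchyme (Prrx1, Prrx2, Twist1, Msx1 and Tbx5) had one, whereas the hindlimb gene Pitx1, the endothelial genes Cdh5, Kdr and Tek, the blood genes Gata1, Klf1 and Spi1 and the neural genes Sox1, Neurod1 and Olig2 had none. The hindlimb gene Tbx4, the ectodermal gene Epcam and the muscle precursor genes Lbx1 and Met had a peak, and Trp63, Krt14, Fgf8 and Pax3 had none. The highest fold enrichment was only 2.45 at Prrx1 and 2.22 at Tbx5, and 11.7, 6.81 and 4.89 at Prrx2, Twist1 and Msx1. It was 4.44 at Tbx4, 4.44 at Epcam, 3.36 at Lbx1 and 5.86 at Met.

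In canonical WNT signaling, ligand binding at Frizzled receptors stabilizes β-catenin, which enters the nucleus and is brought to DNA by the TCF/LEF transcription factors, as it has no DNA-binding domain of its own. TCF/LEF proteins recognize a short core, here written ATCAAAG or TTCAAAG and searched on both strands. Limb bud genes are often controlled by cis-regulatory modules far away, in stretches without genes, and H3K27ac marks the active ones.

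The sequences of the summits that the results turn on are given first, 200 bases each on the plus strand of GRCm38 (mm10), with the summit at the middle and the TCF/LEF core of either strand in capitals. The first 5 are the members with the highest fold enrichment among those that held a core.
chr8:127809709-127809908, between Pard3 and Nrp1: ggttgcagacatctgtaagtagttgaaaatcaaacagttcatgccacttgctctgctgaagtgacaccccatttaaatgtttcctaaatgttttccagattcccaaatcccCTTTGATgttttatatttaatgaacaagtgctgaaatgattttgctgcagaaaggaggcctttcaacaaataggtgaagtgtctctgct
chr9:28085663-28085862, intron of Opcml: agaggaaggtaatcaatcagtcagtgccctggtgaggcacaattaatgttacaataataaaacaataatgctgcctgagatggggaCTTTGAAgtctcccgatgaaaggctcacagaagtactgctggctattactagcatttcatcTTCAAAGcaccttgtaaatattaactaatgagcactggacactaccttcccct
chr16:51598531-51598730, between Ccdc54 and Cblb: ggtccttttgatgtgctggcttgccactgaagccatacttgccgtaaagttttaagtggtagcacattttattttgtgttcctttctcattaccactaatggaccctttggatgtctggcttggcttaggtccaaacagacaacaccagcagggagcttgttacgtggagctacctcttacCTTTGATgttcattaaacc
chr3:114316457-114316656, between Col11a1 and Olfm3: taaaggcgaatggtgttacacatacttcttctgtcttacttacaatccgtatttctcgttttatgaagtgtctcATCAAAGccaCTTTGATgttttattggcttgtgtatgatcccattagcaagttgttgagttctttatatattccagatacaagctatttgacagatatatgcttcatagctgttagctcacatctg
chr8:29978822-29979021, between Unc5d and Dusp26: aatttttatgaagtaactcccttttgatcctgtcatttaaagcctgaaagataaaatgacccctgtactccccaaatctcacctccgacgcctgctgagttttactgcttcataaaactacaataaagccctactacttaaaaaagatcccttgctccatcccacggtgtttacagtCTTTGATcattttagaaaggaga
The next 3 are the strongest members with a core in the landscapes of the WNT receptor gene Fzd1, the ligand gene Bmp2 and the chondrogenic regulator Sox9. They were picked after their values were seen, to show members in landscapes that limb bud genes border.
chr5:4311654-4311853, landscape of Fzd1: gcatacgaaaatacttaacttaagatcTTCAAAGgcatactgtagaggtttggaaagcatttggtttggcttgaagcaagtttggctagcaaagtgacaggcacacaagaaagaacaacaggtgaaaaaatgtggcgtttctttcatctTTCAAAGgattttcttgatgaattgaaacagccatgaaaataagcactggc
chr2:134078108-134078307, landscape of Bmp2: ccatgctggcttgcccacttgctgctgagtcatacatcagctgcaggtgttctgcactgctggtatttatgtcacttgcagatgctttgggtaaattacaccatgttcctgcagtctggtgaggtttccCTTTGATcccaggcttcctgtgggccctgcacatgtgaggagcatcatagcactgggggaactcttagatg
chr11:112283391-112283590, landscape of Sox9: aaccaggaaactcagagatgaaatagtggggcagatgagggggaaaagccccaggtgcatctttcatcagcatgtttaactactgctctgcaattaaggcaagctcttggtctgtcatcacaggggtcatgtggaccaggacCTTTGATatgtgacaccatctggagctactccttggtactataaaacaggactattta
The last 3 are the strongest members that held no core and lay inside a C59 consensus peak.
chr3:78594975-78595174, between Fstl5 and Rapgef2: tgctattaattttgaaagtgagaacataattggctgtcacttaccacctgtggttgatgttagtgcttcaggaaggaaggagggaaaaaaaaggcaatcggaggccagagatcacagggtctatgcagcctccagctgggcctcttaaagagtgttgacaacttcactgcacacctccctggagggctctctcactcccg
chr16:62468922-62469121, between Epha6 and Nsun3: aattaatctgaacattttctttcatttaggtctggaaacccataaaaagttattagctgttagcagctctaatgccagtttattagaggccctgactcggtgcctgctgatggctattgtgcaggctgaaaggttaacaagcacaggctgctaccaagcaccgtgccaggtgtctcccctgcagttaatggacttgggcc
chr15:50664911-50665110, intron of Trps1: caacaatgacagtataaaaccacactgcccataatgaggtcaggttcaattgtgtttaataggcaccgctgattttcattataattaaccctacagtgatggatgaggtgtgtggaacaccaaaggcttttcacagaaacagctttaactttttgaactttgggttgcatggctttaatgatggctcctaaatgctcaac
At the Col11a1 summit, 2 cores of opposite orientation were centered 23 and 13 bp before the summit, with 3 bases between them. The core between Pard3 and Nrp1 was centered 14 bp past the summit, and those at the summits flanked by Cblb and Unc5d lay 84 and 80 bp past it, near the edge of the window.

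β-Catenin summits without H3K27ac were about as dense at 100 kb or more from every TSS as at shorter distances. Sequence at least 100 kb from every TSS made up 238.6 Mb, or 9.32% of the 2559 Mb assessed, and held 4.46 members per Mb, compared with 4.68 per Mb for the summits without H3K27ac at 1 to under 100 kb (10117 summits, called nearer distal summits below). All known bases were counted, also those to which reads cannot be mapped uniquely, while the study dropped alignments of low mapping quality. The part of this in the densities was not tested. By distance, the density was 5.29 per Mb under 1 kb, 3.91 from 1 to 10 kb, 4.98 from 10 to 50 kb, 5.60 from 50 to 100 kb, 4.70 from 100 to 200 kb, 3.69 from 200 to 500 kb and 4.15 beyond. H3K27ac did fall off with distance: 68.5% of the summits under 1 kb lay inside an H3K27ac peak, 18.7% at 10 to 50 kb, 9.73% at 100 to 200 kb and 0% of the 6 summits beyond 500 kb.

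**Figure D1:**
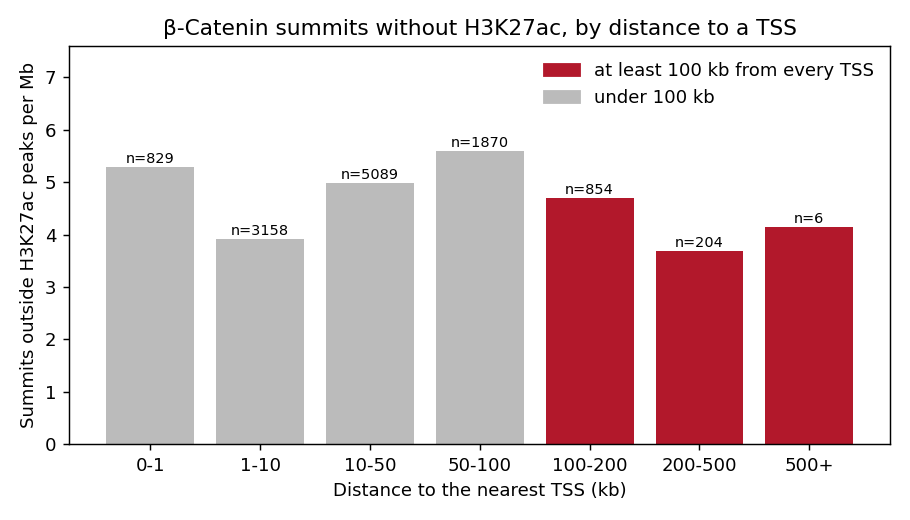
Consensus wild-type control β-catenin summits outside H3K27ac peaks per Mb of sequence (y axis), by distance to the nearest TSS in kb (x axis), with the number of summits above each bar. The bars at 100 kb or more (red) reach 4.70, 3.69 and 4.15 per Mb, within or just below the range of 3.91 to 5.60 of the nearer bars.

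The members lay a median of 138 kb from a TSS (interquartile range 114 to 182 kb). At least 200 kb separated 210 of them from any TSS, and 6 lay beyond 500 kb. The 5 farthest were in introns of a pair of long neuronal genes. A summit at 693 kb, inside Dcc, the netrin receptor gene, had a fold enrichment of 3.89 and 4.98 in the wild-type control replicates, and another at 654 kb in the same gene had 7.63 and 8.18. In Ptprd, which encodes a receptor tyrosine phosphatase, summits lay 597, 580 and 579 kb from a TSS, with consensus folds of 8.88, 6.40 and 4.94. Just inside the limit, the 5 members at 100.003 to 100.215 kb had folds of 7.96, 12.2, 5.74, 6.90 and 8.50. The 5 summits just outside, at 99.991 to 99.72 kb, had 7.17, 15.3, 4.18, 7.62 and 5.16, so the limit does not mark a step in enrichment.

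The members were found on all 20 chromosomes, from 91 on chromosome 2 to 15 on X. Per Mb of eligible sequence, meaning sequence at least 100 kb from every TSS, the autosomes ranged from 2.77 (chromosome 6) to 8.57 (chromosome 12), whereas X had 0.957. The same held for the nearer distal summits, which reached 1.16 per Mb on X and 3.58 to 5.78 on the autosomes. Per the study's methods, embryos of either sex were used. The parts of their sex and of sequence without unique mapping in this value were not tested.

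Most members lay outside genes, and most had no other member within 10 kb. Of the 1064 members, 709 (66.6%) lay outside all annotated genes, 336 (31.6%) in an intron of a protein-coding gene, 16 (1.50%) in a non-coding gene and 3 (0.282%) in an exon, of Khdrbs3 and Fign. Members up to 10 kb apart were joined into 890 loci, of which 746 held 1 member, 117 held 2 and 27 held 3 or more, with 4 at most. Among host genes, Gpc6, a glypican on the cell surface, held 15 members. Its neighbor Gpc5 held 10, as did Npas3, a bHLH-PAS transcription factor gene, the synaptic adhesion gene Nrxn3 and the DNA repair gene Rad51b.

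Enrichment at the members was modest and similar in both control libraries. Fold enrichment, the coverage at the summit over that expected in the same library, had a median of 7.35 in the consensus list (interquartile range 5.69 to 9.61, from 3.44 to 33.9), where the median of the nearer distal summits was 7.03. Coverage was not solved for the few members with the highest −log10 p. Over the other 1058, a summit typically rested on 33 fragments (median, range 13 to 235) where 3.54 were expected, and this range leaves out those few. The medians were 6.32 in replicate 1 and 6.40 in replicate 2, and the log2 ratio of the replicates had an SD of 0.37 over the members. Spearman's rho between the replicates was 0.73 over 1064 summits, which is a description only, since the summits share their libraries. All 1064 lay inside a peak of both replicates, which the making of the consensus list required. A fold of 20 or more was reached by 21 members, and 155 stayed under 5.

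**Figure D2:**
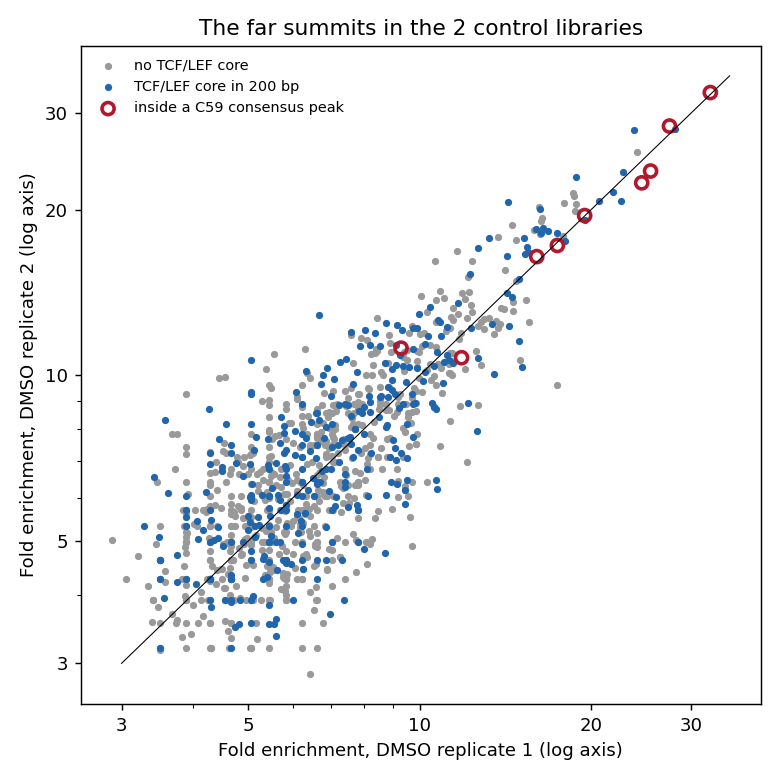
Fold enrichment of the 1064 members in wild-type control replicate 1 (x axis, log scale) and replicate 2 (y axis, log scale), with members holding a TCF/LEF core in blue, those without in gray, and the 9 inside a C59 consensus peak ringed in red; the line marks equal values. The points scatter around the line with an SD of 0.37 (log2), and 5 of the 9 ringed summits are among the 21 with a consensus fold of at least 20.

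The strongest member lay 212 kb from any TSS between Pard3, a cell polarity gene, and Nrp1, a receptor for semaphorins and VEGF, at chr8:127809809. Its fold was 32.4 and 32.6 in the wild-type control replicates. A pair of summits in an intron of Opcml, which encodes a neural adhesion protein, followed closely: 28.02 and 28.1 for the first, at chr9:28085763, and 24.1 and 25.4 for the second, at chr9:28091638. The summit between Fstl5 and Rapgef2 reached 27.5 and 28.4, and the one flanked by Ccdc54 and the ubiquitin ligase gene Cblb reached 23.8 and 27.9. At the summit 298 kb from Nsun3, with the ephrin receptor gene Epha6 as the other border, the values were 25.4 and 23.5. At the summit 151 kb from Col11a1, a collagen gene of cartilage, they were 22.8 and 23.4. In an intron of Trps1, a zinc-finger repressor gene active in cartilage, they were 24.5 and 22.4. The 10 strongest were completed by the summits between the netrin receptor gene Unc5d, 759 kb away, and Dusp26, with 22.5 and 20.7, and between Mgst1 and Lmo3, with 18.8 and 23.0. The replicates thus gave close values at each of these sites. Of these 10 members, 6 held a TCF/LEF core.

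H3K27ac peaks of the single libraries rarely covered a member, as follows from the rule, since the consensus lists were made from these libraries. Of the members, 5 and 9 lay inside a peak of the wild-type control H3K27ac replicates and 9 and 6 inside one of the C59 replicates, in all 25 (2.35%). Most were also far from the mark, with a median of 184 kb to the nearest wild-type control H3K27ac peak and 714 (67.1%) over 100 kb away, compared with a median of 45.5 kb for the nearer distal summits. These distances follow in part from the rule, since 68.5% of the summits next to a TSS carried the mark. Within 5 kb of an H3K27ac peak lay 94 members.

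To see which genes border this binding, a landscape was defined as the stretch between neighboring protein-coding TSSs. Members occupied 442 of the 1196 landscapes with eligible sequence (37.0%). A single member was found in 216 of them, 2 to 4 in 175, and 5 or more in 51, which together held 391 members. The 10 fullest landscapes held 124 members (11.7%).

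The landscape between Slc4a3 and the ephrin receptor gene Epha4 held 15 members in 641 kb of eligible sequence, with folds from 4.18 to 13.5. Applying the same distance and H3K27ac rule to each library gave 19 and 18 summits in the wild-type control replicates and 0 and 0 after C59. Between Sel1l and Flrt2, a gene for a transmembrane protein that binds FGF receptors, there were 15 members with folds up to 21.1, with 16 and 25 summits in the control replicates and 1 and 1 after C59. The landscape that starts at Gpc6 also held 15 members, with 18 and 18 summits in control libraries and 1 and 1 after C59. Between Nudt12 and Efna5, which codes for an ephrin ligand, there were 14 members, with 17 and 20 control summits and 0 and 0 after C59. In each of these landscapes, both C59 values were below both control values, but the landscapes were chosen by their number of control summits, so this is a description. The whole β-catenin lists fell as well, from 20148 and 25765 summits in the control replicates to 283 and 315 after C59.

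The landscape between Mterf1b and Fzd1, which encodes a WNT receptor, held 12 members in only 366 kb of eligible sequence, or 32.8 per Mb, with 12 and 13 summits in the wild-type control replicates and 0 and 0 after C59. The strongest, 446 kb from the Fzd1 TSS, had a fold of 10.6 and 10.4, and its 200 bases held a core on either side of the summit, at 70 bp before and 52 bp after it. The landscape between Olfr1505 and Tle4, a co-repressor of the Groucho family that binds TCF proteins, held 11 members and no control H3K27ac summit, and the one on the other side of Tle4, which ends at Psat1, held 5 members and 5 control H3K27ac summits. Between Zeb2, a zinc-finger transcription factor gene, and the activin receptor gene Acvr2a there were 11 members, and 11 more lay between Epha7, another ephrin receptor gene, and Map3k7, a kinase gene of TGFβ signaling, where the strongest fold was 22.3. The landscapes that start at Npas3 and Rad51b each held 10, a number shared by those of Nrxn3, of Gpc5 and of the axon guidance gene Slit2. The landscape between Rad51b and Zfp36l1 also carried 34 and 32 H3K27ac summits in the wild-type control and C59 consensus lists, all elsewhere than at the members.

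**Figure D3:**
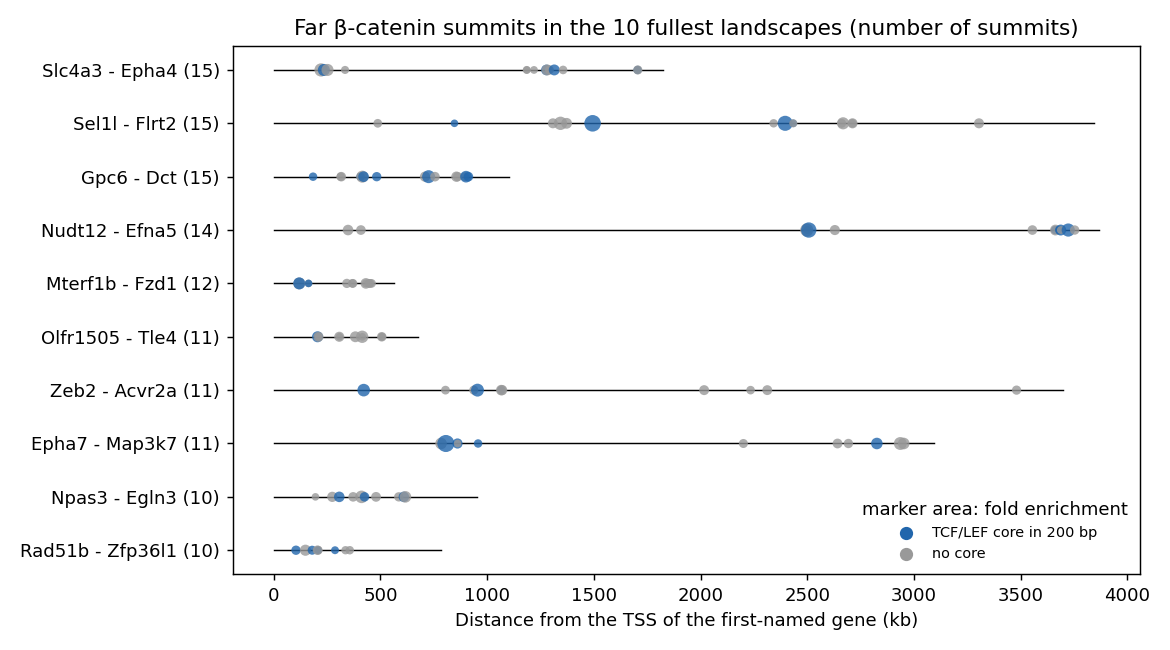
Positions of the members in the 10 fullest landscapes, as the distance in kb from the TSS of the first-named gene (x axis), with 1 line per landscape as long as the landscape and the number of members in brackets. Marker area is proportional to fold enrichment and blue markers held a TCF/LEF core. Members lie in groups along the lines, as between Nudt12 and Efna5, where most are at the Efna5 end. The groups follow in part from the rule, since only eligible sequence can hold members and it is not marked. Between Nudt12 and Efna5 it was 1218 of 3868 kb.

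Genes of known roles in the limb bud were compared with all genes by how many of those bordering eligible sequence had a member. They were also compared by members per Mb, since long eligible stretches can hold more. Of 1777 protein-coding genes that border eligible sequence, 736 (41.4%) had at least 1 member in an adjoining landscape, and eligible sequence held 4.46 members per Mb. Cell adhesion and axon guidance genes had the highest share of the larger lists, 47 of 59 (79.7%), but their landscapes held 40.4 Mb of eligible sequence and 4.36 members per Mb, close to the value for all. Epha4 bordered 17 members, Efna5 14, Epha7 13 and Nrxn3 and Slit2 10 each. With the TSSs of all genes as borders, including non-coding ones, the share was 48.4% for this list and 28.1% for all genes.

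For the limb patterning transcription factors, 16 of 26 (61.5%) had a member, and the density was 9.72 per Mb. Zeb2 bordered 11, the zinc-finger gene Sall1 8 and Shox2, a homeobox gene of the proximal limb, 6. The Sall1 members were weak, and the strongest had a fold of 6.77 and 6.15 in the replicates. Hand2, which acts in posterior limb bud mesenchyme, bordered 3 members that all held a core, the strongest 187 kb away with 9.89 and 12.2. Hand2 was named after its values were seen. No member was found in the landscapes of 10 of the 26 genes, among them Gli3, which bordered only 0.089 Mb of eligible sequence.

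For the WNT pathway, 7 of 15 genes (46.7%) had a member, with a density of 12.5 per Mb. This value rests on the Fzd1 landscape, and without it the density was 7.17. After Fzd1, the R-spondin gene Rspo2 bordered 3 members, the strongest of which, 112 kb from the TSS, had 7.58 and 8.46. Ror2, a receptor of non-canonical WNT ligands, bordered 2, one of them 122 kb from its TSS with 14.3 and 20.6. Tcf7l2, a TCF/LEF family gene, bordered 2, with 6.31 and 5.85 for the stronger. The genes Dkk1, Dkk2, Fzd8, Lgr5, Rspo3, Sfrp1, Sulf1 and Wls bordered eligible sequence in which no member was found. This sequence was short, 0.271 Mb for Sulf1, 0.160 Mb for Dkk2 and from 0.017 Mb (Lgr5) to 0.094 Mb (Fzd8) for the others. With 4.46 members per Mb over all eligible sequence, a lack of members in such short stretches says little.

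In the BMP pathway, 7 of 13 genes (53.8%) had a member and the density was 6.48 per Mb. Acvr2a bordered the 11 members it shares with Zeb2. Bmp2 bordered 6, of which 4 held a core, and the strongest lay 526 kb from its TSS with 9.23 and 10.9. Bmp7 bordered 3, with 16.3 and 20.02 at the strongest, 279 kb away. Bmper, a BMP-binding regulator, and the TGFβ receptor gene Tgfbr2 bordered 2 each. In the FGF pathway, 6 of 8 genes (75%) had a member and the density was 10.3 per Mb. Flrt2 bordered 22 of the 30 members of this list and Fgf12 4, whereas Fgf10, the mesenchymal ligand of limb bud outgrowth, bordered 1 weak summit 257 kb away, with 5.06 and 3.91. With the TSSs of all genes as borders, the share of the FGF list was 25%.

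Among the chondrogenic genes, 6 of 11 (54.5%) had a member, with a density of 7.20 per Mb. Trps1 bordered 9, Sox9 5, and Sox5, its partner in cartilage, and the cartilage matrix gene Matn1 3 each. The strongest summit in the Sox9 landscape lay 370 kb from the TSS, with 16.2 and 20.3, and held no core. The one in an intron of Sox5 had 15.5 and 17.1 and held one. In the Hedgehog pathway, Hhip, the Hedgehog-binding antagonist, bordered 3 members about 257 to 267 kb from its TSS. None was found in the 0.419 Mb of eligible sequence bordering Shh. With 4.46 members per Mb over all eligible sequence, this lack says little. The paper reports a β-catenin peak at the ZRS enhancer of Shh in control buds, so the lack concerns the members only. The retinoic acid receptor gene Rarb was the 1 gene of 3 in its list with a member. These lists describe where the summits lay, and bordering a gene does not show that a summit acts on it.

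The C59 β-catenin lists were not used to choose the members, whereas the C59 H3K27ac consensus list was. A control peak was required of each member, so absence of members after C59 follows in part from the choice. Almost all of this binding was absent from the β-catenin lists made after C59. The rule gave 1296 and 1643 far summits in the wild-type control replicate lists and 13 and 16 in the C59 replicate lists. The whole lists fell likewise, from 20148 and 25765 summits to 283 and 315. Far summits were 6.43 and 6.38% of the control lists and 4.59 and 5.08% of the C59 lists. The counts of far summits did not overlap between treatments. The difference of their means had a p of 0.33 in the exact two-sided permutation test, the smallest that 2 against 2 libraries can give. The C59 lists corresponded to 3.42 and 3.40 Gb of fragments and the control lists to 2.93 and 3.39 Gb. The lowest −log10 p listed was 3.89 and 3.79 in the controls and 5.69 and 5.76 after C59. With the highest of these values applied to all lists, the counts were 1140 and 1348 in the controls and 13 and 16 after C59.

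Of the members, 9 of 1064 (0.846%, Wilson 95% interval 0.446 to 1.60%) lay inside a C59 consensus peak, compared with 1.12% of all consensus summits. In either C59 replicate list it was 19 (1.79%), compared with 2.3% of all. In the 2 replicates alone it was 11 and 16. The C59 consensus list begins at a −log10 p of 9.24, which 985 of the members reached in the control, and 79 did not. A site at background would have needed about 21 fragments and a fold of 4.68 to be listed after C59, so weaker binding was not detectable at this depth, and a member without a listed peak is not shown to be unbound.

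The 9 remaining members were strong sites in the control, and each had lower enrichment after C59. At chr8:127809809, between Pard3 and Nrp1, the fold was 32.4 and 32.6 in the control and 4.45 and 4.85 after C59. Between Fstl5 and Rapgef2 it was 27.5 and 28.4 before and 8.48 and 9.09 after. At the summit between Epha6 and Nsun3 it was 25.4 and 23.5, then 8.84 and 6.84. The one in Trps1 had 24.5 and 22.4, then 8.59 and 10.4. In the landscape between Sel1l and Flrt2 the values were 19.5 and 19.5, then 5.64 and 6.00. On the other side of Flrt2 they were 17.5 and 17.2, then 8.004 and 5.81. Between Tmprss15 and the neural adhesion gene Ncam2, 252 kb from the former, they were 16.1 and 16.4, then 6.72 and 4.97. In Gpc6 the control summit, with 9.28 and 11.2, lay inside the listed peak of C59 replicate 2 only, with 5.32. The replicates of the treatments did not overlap at any of the 9, and the ratio of the consensus folds, control over C59, ran from 2.10 to 6.54 with a median of 2.99. Because the members were chosen for their control peaks, these ratios are a description and carry no test.

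**Figure D4:**
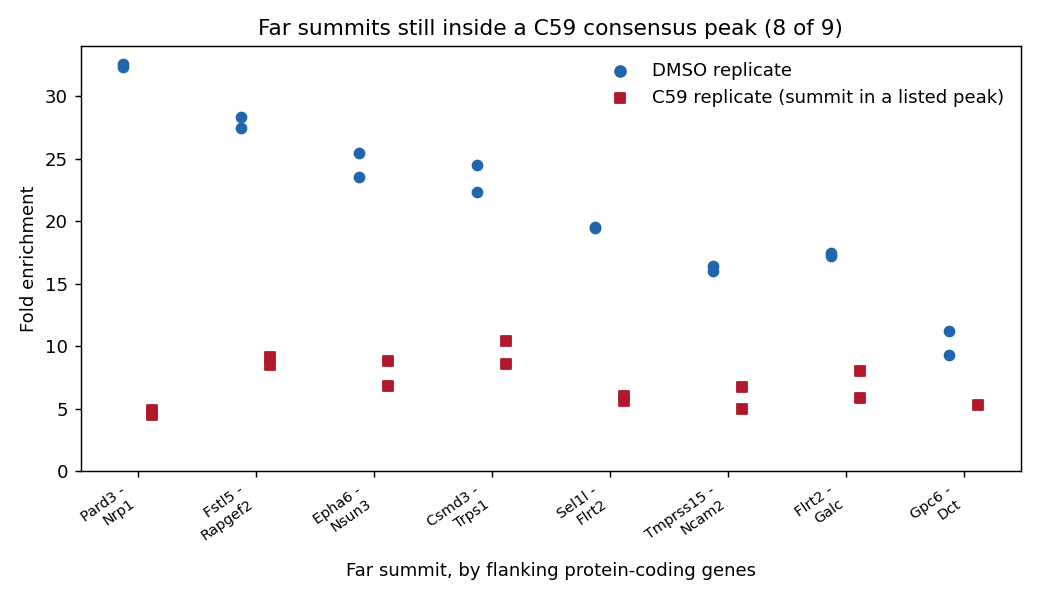
Fold enrichment (y axis, linear) in each wild-type control replicate (blue circles) and each C59 replicate whose listed peak held the summit (red squares), for 8 of the 9 members inside a C59 consensus peak, named by the flanking protein-coding genes. The control values run from 9.28 to 32.6 and the C59 values from 4.45 to 10.4, and at each summit every C59 value lies below both control values.

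Whether a site stayed listed went with its control fold. Part of this order follows from the listing threshold, since a site at background needed a fold of about 4.68 after C59. A weaker site could lose less enrichment before it dropped from the list, so the order does not compare the loss itself. Of the 21 members with a control fold of at least 20, 5 (23.8%, 10.6 to 45.1%) lay inside a C59 consensus peak, and of the 1043 below 20, 4 (0.384%) did. The nearer distal summits showed the same order, 23 of 160 (14.4%) and 37 of 9957 (0.372%). Of the 9 remaining members, 2 held a core. A further 10 members lay inside a peak of a single C59 replicate list, 3 in replicate 1 and 7 in replicate 2, with C59 folds from 4.26 to 6.72. Among these, the strongest summit in the landscape of Slit2, with 18.7 and 19.9 in the control, had 6.72 in C59 replicate 1. A summit in an intron of the ephrin receptor gene Epha3, with 15.4 and 13.7 in the control, had 5.81 in the same library. The second Opcml summit was listed in C59 replicate 2 with 6.38 but not in the consensus, whereas the first, which was slightly stronger in the control and held 2 cores, was in no C59 list. All 9 C59 consensus summits that themselves met the distance and H3K27ac rule lay inside a control consensus peak.

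A difference in loss between the members and the nearer distal summits was not detectable. The nearer distal summits lay inside a C59 consensus peak in 60 of 10117 cases (0.593%), and the difference from the members was 0.253 percentage points (Newcombe 95% interval −0.182 to 1.02, Fisher's exact test, adjusted p = 0.60). In contrast, 60 of 2374 distal summits inside an H3K27ac peak (2.53%) remained, and the members differed from them by −1.68 percentage points (−2.50 to −0.743, Fisher's exact test, adjusted p = 0.0011). Counted by loci, it was 45 of 1932 (2.33%) against 9 of 890 (1.01%), with an adjusted p of 0.017. This second comparison was added after the values were seen, and its p-values treat summits of the same libraries as independent.

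The TCF/LEF core was found in 339 of the 1064 windows (31.9%, 29.1 to 34.7%), compared with 212 of 2128 control windows 2 kb to either side (9.96%). ATCAAAG was found in 15.7% of the windows and 4.46% of the control windows, and TTCAAAG in 18.5 and 5.83%. A single core was held by 277 members, 2 by 57 and 3 by 5. Of the 415 cores in these windows, 65.3% were centered within 50 bp of the summit. The profile of cores peaked at 6.11 per 100 summits in the 20 bases just before the summit. The share with a core rose with the fold, from 21.9% of the members under 5 through 29.3% (5 to 7.5), 34.4% (7.5 to 10), 36.2% (10 to 15) and 50% (15 to 20) to 52.4% of those at 20 or more. It did not fall clearly with distance: 32.5% held a core at 100 to 150 kb, 33.5% at 150 to 200 kb, 27.7% at 200 to 300 kb and 29.1% (16 of 55, 18.8 to 42.1%) beyond.

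**Figure D5:**
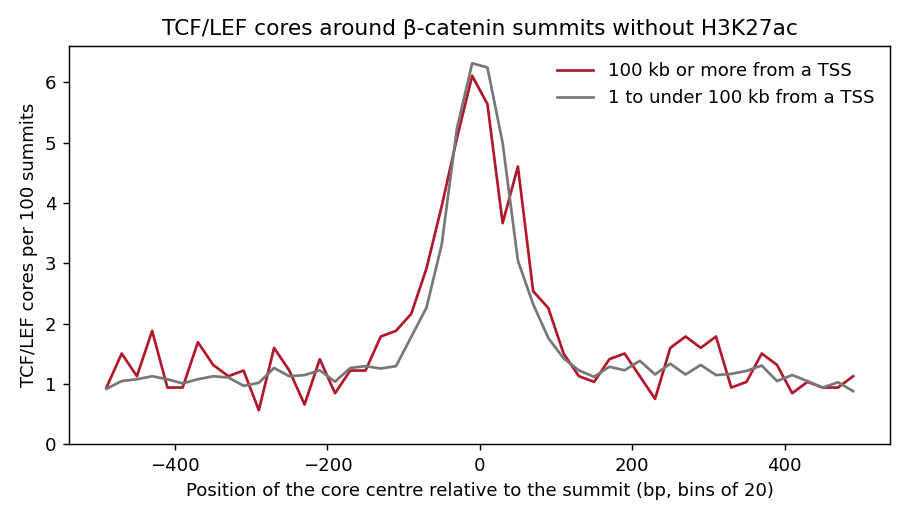
TCF/LEF cores per 100 summits in bins of 20 bp (y axis) against the position of the core relative to the summit (x axis), for the members (red) and the nearer distal summits (gray). Both profiles peak at the summit, at 6.11 for the members. From about 200 bp on, the gray profile is near 1 and the red one varies from 0.564 to 1.88.

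Cores of other transcription factor families also distinguished the windows from their surroundings. The E-box CAGCTG, bound by bHLH factors, was in 16.4% of the windows and 5.92% of the control windows, and the TWIST-type E-box CAGATG in 29.0 and 14.6%. The homeobox core TAATTA was in 19.4 and 9.96%, CATAAA of posterior HOX factors in 28.2 and 17.1%, and TGACAG of MEIS factors in 22.7 and 13.3%. The opposite order was found for AGATAA of GATA factors (8.74 and 15.3%) and ACAATG of SOX factors (8.65 and 13.1%), while GGAATG of TEAD factors was equally frequent (11.7 and 11.6%). None of the cores searched was found in 82 windows. When all 8141 words of 7 bases were ranked by this difference, rank 1 went to CTTTGAA, which is TTCAAAG on the other strand. Rank 2 was held by CCTTTGA, which overlaps the core, and rank 3 by ATCAAAG itself. At rank 4, ATAAATC was found in 13.6% of the windows and 3.62% of the control windows. These are letters in a window, and no factor other than β-catenin was measured.

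In these features, no difference of the members from the nearer distal summits passed the test. Of 16 measures compared with the nearer distal summits, 0 (0%) passed an adjusted p of 0.05 in Fisher's exact test, and 1 had an unadjusted p under 0.05, the TEAD core (11.7 against 14.0%, adjusted p = 0.48). The TCF/LEF core was in 32.1% of the nearer windows, and the difference of −0.24 points had an interval of −3.12 to 2.76. The CAGCTG difference was −2.38 points (−4.63 to 0.0820) and the TAATTA difference 1.77 points (−0.618 to 4.35). Repeats covered 6.39% of the member summits and 7.57% of the nearer ones (Fisher's exact test, adjusted p = 0.48), and 25.3% of the centers of the control windows of the members. GC content had a median of 41.5% in the windows of the members and 44% in the nearer ones.

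The distal summits inside H3K27ac peaks did differ in sequence. They held a TCF/LEF core in 504 of 2374 windows (21.2%), a share 10.6 percentage points below that of the members (7.42 to 13.9, Fisher's exact test, adjusted p = 1.9e-10), and by loci in 22.0% against 32.0% (adjusted p = 5.2e-08). This test was likewise added after the values were seen. Their windows were richer in GC, with a median of 49.5% against 41.5% for the members, and their median fold was 6.88. No control windows were compared for this class, and the part of GC content in the difference in cores was not tested.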

How the data were processed

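The authors trimmed, mapped (Bowtie2 2.4.5), dropped alignments of low mapping quality and called peaks with macs2 2.2.7.1 without input. They removed duplicates (Picard 2.27.4) and retained a consensus summit if both replicates had a peak there. The values deposited per summit are the fold enrichment, a ratio to the expected coverage, and the −log10 of p and q. Deposited lists of both antibodies were used, and the input samples have no list and were not used here. The removal of blacklisted summits was not repeated. Depth in fragments was solved from each row's fold and p, apart from the rows with the highest −log10 p.

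Distances were measured on GRCm38 with all GENCODE M21 transcripts (130588 TSS positions). The study used a custom annotation. Sequences came from RefSeq's GRCm38.p6. Shares carry Wilson and their differences Newcombe intervals (95%), which cover counting error only. Fisher's exact tests (scipy 1.17.1, two-sided) were adjusted by Benjamini-Hochberg over 16 measures, or 4 for the H3K27ac class, and summits are not replicates. Scripts were tested on simulated data. Members, cores and gene lists were chosen with earlier results of these data known. Named were the 10 strongest, the 5 farthest, those inside C59 peaks, those at the limit, the 10 fullest landscapes and up to 4 genes a list by members, except where stated. A listed gene and the C59 summit bordering it are not reported here.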

Additional observations from a re-analysis of the deposited data

How the results depend on the processing

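The number of members depends on the limit: 2934 at 50 kb, 210 at 200 kb and 4628 with protein-coding TSSs alone, against 1064. With 1 control replicate list in place of the consensus, which no longer requires both, it was 1296 to 1643. The share inside a C59 peak was 0.384% for folds under 20 (an alternative chosen after seeing the data) and 1.79% with either C59 replicate, and 0.548 to 1.50% with 1 replicate list left out. The share with a TCF/LEF core was 28.1% at 200 kb, 22.1% in windows of 100 bp, 39.6% in windows of 400 bp and 15.7% for ATCAAAG alone. With the TSSs of all genes as borders, 28.1% of all protein-coding genes had a member. The differences from the nearer distal summits stayed on the same side of the threshold under each alternative run, from −0.0040 to 0.827 points for C59 peaks, −4.06 to 0.842 for the TCF/LEF core and −1.29 to −0.132 for repeats. In total 59 of 72 alternatives kept their call or stayed within the error of the main value.

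No paired analysis was possible because the results come from peak lists and shares of summits, not from a fit over samples. Limits are the 2 libraries per treatment, C59 lists that begin at a higher −log10 p than the control lists, and the lack of read counts at unlisted positions.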
